A study of Mus musculus with 6 samples.

Results

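The 10 genes described here encode effector cytokines of group 2 innate lymphoid cells (ILC2s), namely Il5, Il13, Il4, Il6, Il9, Il10, Il2, Csf2, Areg and Osm. They were taken by name from the deposited gene count table, and all 10 of the 10 listed genes were among its 17438 genes. After the filter on low counts 8 of the 10 members and 13317 of all genes were tested, since Il10 and Il2 had too few reads. The study sequenced RNA of ILC2s that had been sorted from the lung of mice, exposed to IL-33 and kept in culture, from WT mice (n = 3) and from mice with the targeted allele B6.129S4-Cd48tm1Rsr/EpaulJ (Cd48 KO, n = 3). The labels give the strain of every sample as CB57BL/6, and all samples share the sort, the culture and IL-33, so that no resting or IL-33-free group was measured. The series' design text speaks of duplicates while 3 samples per genotype were given, so whether each n of 3 stands for separate cultures is not known. The allele's name gives 129S4 as the donor strain of the targeted locus. The labels give no age, do not say whether animals were pooled, and do not say that samples came from separate animals, so p-values here reflect sample-to-sample spread alone, part of which may be technical. Per-library values below run in the order WT1, WT2, WT3 and then KO1, KO2, KO3.

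ILC2s carry no antigen receptor. They release cytokines when tissue alarm signals such as IL-33 reach the receptor chain encoded by Il1rl1, and the factor GATA3 keeps their cytokine loci open. IL-5 feeds eosinophils, IL-13 drives mucus and airway smooth muscle responses, IL-9 sustains the ILC2s themselves, GM-CSF (Csf2) acts on myeloid cells, amphiregulin (Areg) is an epidermal growth factor receptor ligand of tissue repair, and oncostatin M (Osm) is a cytokine of the IL-6 family. The comparison of Cd48 KO with WT asks whether this output differs when CD48, a surface ligand of CD244 and CD2, is disrupted.

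Il4, Il13 and Il5 lie in 1 cluster on GRCm38/mm10 chromosome 11, with Rad50 between Il13 and Il5, and Csf2 lies further along the same chromosome. Relative to the Il5 start, the Il13 start lies at -86.1 kb, the Il4 start at -102 kb and the Csf2 start at 529 kb. Because Il5 and Il13 on the one hand and Csf2 on the other had fold changes of opposite sign when library WT1, which stood apart, was left out, the 250 bases before their RefSeq starts are shown with those of Il6, the promoter with matches to the largest number of searched motifs. Sequences are from RefSeq (GRCm38.p6), read 5′ to 3′ on the gene's strand. Capitals mark matches, on either strand, to a GATA motif (the letters GATA after an A or T and before an A or G), an AP-1 motif (TGANTCA) or the NF-κB motif, which is given by name. The windows are chr11:53720544-53720793 (plus strand) for Il5, chr11:53634703-53634952 (minus) for Il13, chr11:54249900-54250149 (minus) for Csf2 and chr5:30012864-30013113 (plus) for Il6.
Il5: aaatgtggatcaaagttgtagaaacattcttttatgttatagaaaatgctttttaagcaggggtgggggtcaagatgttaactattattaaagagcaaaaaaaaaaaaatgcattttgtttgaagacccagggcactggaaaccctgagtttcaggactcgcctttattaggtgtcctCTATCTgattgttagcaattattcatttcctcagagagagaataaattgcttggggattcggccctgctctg
Il13: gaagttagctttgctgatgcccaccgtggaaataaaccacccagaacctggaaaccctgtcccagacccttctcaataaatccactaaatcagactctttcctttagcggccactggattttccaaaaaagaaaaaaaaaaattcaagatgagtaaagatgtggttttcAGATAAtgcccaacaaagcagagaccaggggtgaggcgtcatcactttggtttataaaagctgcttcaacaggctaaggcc
Csf2: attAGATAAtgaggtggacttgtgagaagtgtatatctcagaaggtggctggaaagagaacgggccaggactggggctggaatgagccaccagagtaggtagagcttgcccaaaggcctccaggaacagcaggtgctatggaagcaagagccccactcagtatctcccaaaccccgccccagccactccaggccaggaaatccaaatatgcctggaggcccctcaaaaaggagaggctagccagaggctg
Il6: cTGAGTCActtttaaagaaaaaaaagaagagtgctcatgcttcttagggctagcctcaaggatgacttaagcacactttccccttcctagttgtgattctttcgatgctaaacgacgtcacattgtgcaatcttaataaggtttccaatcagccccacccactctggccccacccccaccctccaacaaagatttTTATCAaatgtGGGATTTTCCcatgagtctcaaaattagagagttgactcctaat
Counted from the RefSeq start, the first base of the GATA match lay at -72 in Il5, -81 in Il13, -247 in Csf2 and -55 in Il6, and at -80 in 1 of the 2 windows of Il4. Such a match stood in 26.5% of the 32851 promoter windows of this length, so it is common. The NF-κB motif stood in 1.41% of windows, and among the members in those of Il6 (from -44) and Il9 (from -54). The AP-1 motif stood in 6.75% of windows, and in those of Il6 (from -249) and Il9 (from -140). A STAT motif (TTCNNNGAA, 7.02% of windows) had no match in the windows of the 8 members that the table holds. The Csf2 window ends upstream of the gene start in the GENCODE annotation, because RefSeq places that start further out. A match is a string of letters and no measured binding.

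The deposited counts summed to between 14928623 and 27450400 per library. Cd48 was at 58.2, 46.6 and 41.6 CPM (counts scaled to a common library size) in WT and at 4.52, 5.59 and 4.40 CPM in KO, the order that the labels give. WT1 stood apart: its genes with long transcripts were low (median log2 difference from the mean of WT2 and WT3 of -0.89 over 452 genes of at least 8000 bases and at least 10 CPM), and those of 500 to 1000 bases were high (0.47 over 364 genes). Each cytokine's fold change is therefore given with and without WT1. All 14 ILC2 markers were counted, with summed levels of 7202 to 7915 CPM in WT and 8011 to 8287 CPM in KO. Of the markers of other cells, those of T cells summed to 93.4 to 179 CPM in WT and 65.9 to 74.8 in KO, mostly from Lat and Cd3g (the other 5 gave 3.35 to 8.43 and 5.16 to 7.17 CPM). Lung epithelial markers summed to 32.1 to 84.7 CPM in WT and 11.2 to 25.1 in KO. Macrophage and monocyte markers summed to 219 to 333 CPM in WT and 209 to 228 in KO, nearly all Ccr2 (the other 9 gave 10.8 to 33.3 and 5.81 to 16.2 CPM). Mast cell and basophil markers summed to 115 to 283 and 274 to 282 CPM, nearly all Kit (the other 3 gave 2.34 to 3.14 and 3.05 to 7.13 CPM). Sums for B cells, endothelium and fibroblasts, eosinophils, NK cells and ILC1, ILC3 and neutrophils reached at most 41.9 CPM in any library. Cd3d, C1qa, Mrc1, Cd79a and Prf1 were under 1 CPM in every library, but other markers of the same cells were not. Cd3e was at 2.19 to 2.67 CPM in WT and 0.492 to 1.52 in KO, Cd79b at 12.1 to 19.7 CPM over all libraries, Cd68 at 3.95 to 8.29 CPM, and Lyz2 at 1.68 to 16.8 CPM in WT and 0.621 to 5.66 in KO. Without WT1, Cd3g, Ccr2 and Epcam were called lower and Gzmb higher in KO (edgeR, BH). Gzmb was low, at 0.628, 0.200 and 0 CPM in WT and 3.24, 1.78 and 0.960 CPM in KO. The part of these genes in the cytokine values was not tested.

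The cytokines took a visible share of all transcripts. Together the 10 genes held 1.08%, 0.737% and 0.671% of the counts in WT and 0.796%, 0.890% and 0.816% in KO. Il5 alone made up 84.2% to 88.8% of these counts and was the 2nd to 4th most counted gene of each library. On a scale that allows genes to be compared, CPM per kilobase of the longest annotated transcript, Il5 stood at 4695 ± 1001 (SD, n = 6 libraries of both genotypes). Csf2 followed at 695 ± 85.6, Il13 at 249.6 ± 43.7 and Il9 at 156 ± 19.0, and the 6-library ranges of these 4 genes did not overlap. Areg (50.6 ± 6.04) and Osm (49.0 ± 10.3) came next and overlapped, followed by Il4 (17.0 ± 4.74) and Il6 (4.15 ± 1.62). Il2 (0.355 ± 0.204) and Il10 (0.182 ± 0.243) were last and overlapped. The IL-33-treated cells of both genotypes thus carried chiefly Il5 and Csf2 transcripts, with little Il4 and almost no Il2 or Il10.

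**Figure D1:**
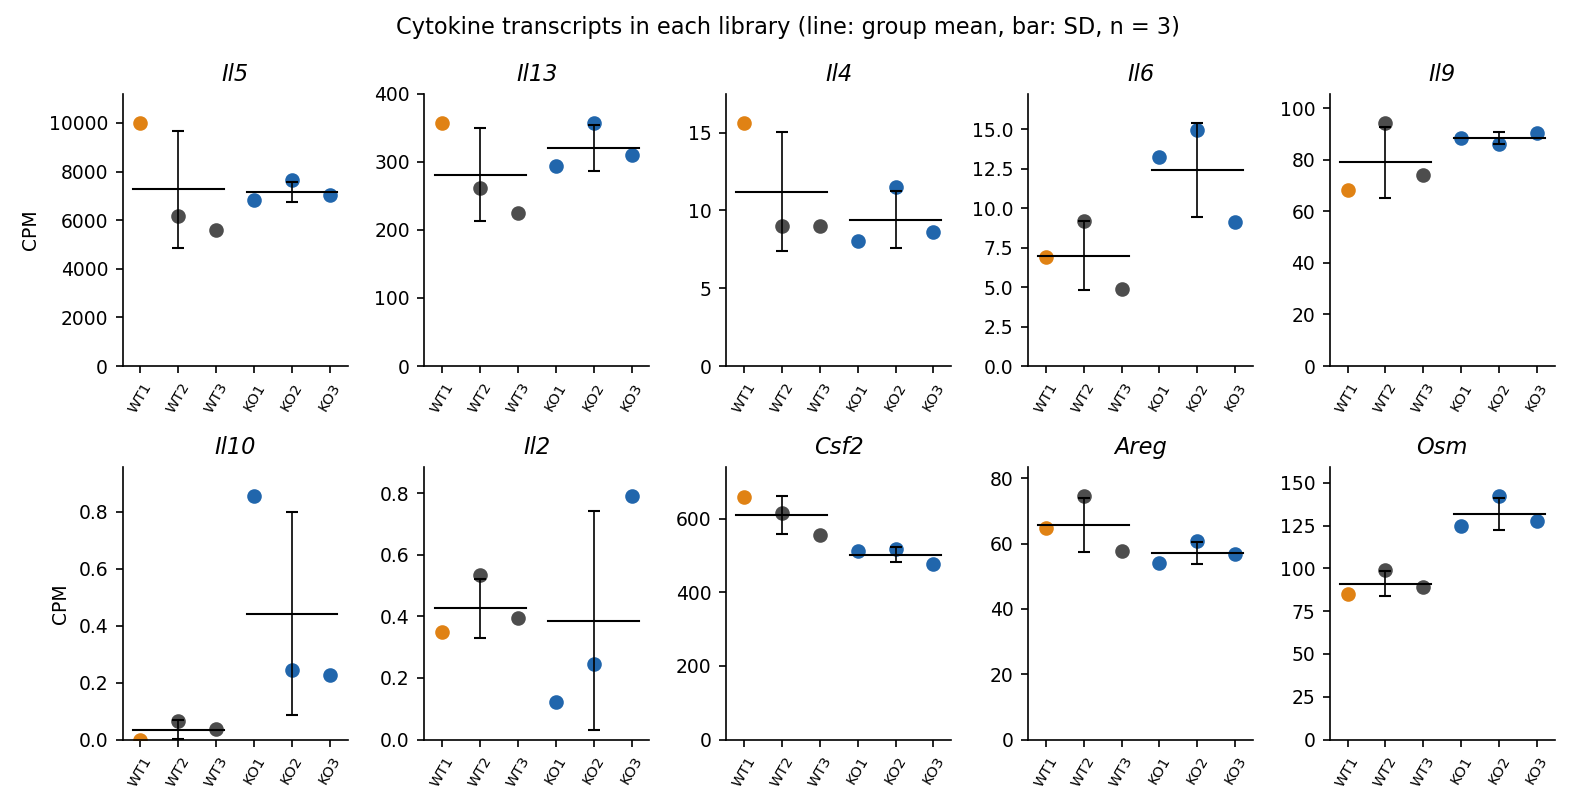
Level of each of the 10 cytokine transcripts (CPM, linear axes from 0) in the 6 libraries, with WT1 in orange, WT2 and WT3 in grey and KO in blue, lines at group means and bars of SD (n = 3). The 3 KO libraries lie above all WT libraries for Osm and below them for Csf2, and WT1 is the highest WT library for Il5, Il13 and Il4.

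Across all 6 libraries, 0 of the 8 tested cytokine genes passed edgeR's quasi-likelihood test at a Benjamini-Hochberg (BH) adjusted p under 0.05, against 0.03% of all tested genes. At an unadjusted p under 0.05 there were 3 of the 8 (Osm, Il6 and Csf2), against 6.89% of all tested genes. By DESeq2, and also by limma-voom with quality weights per sample, 1 of the 8 was called, Osm, against 0.811% and 0.713% of all genes. The quality weight of WT1 was 0.092, beside 1.08 to 2.36 in the other libraries, so the weighted fit nearly left WT1 out. The KO libraries lay wholly above the WT libraries for 1 of the 8 (Osm; 10.2% of all tested genes) and wholly below for 1 (Csf2; 9.11%). Log2 fold changes were positive for 4 and negative for 4, with a median of 0.07 beside -0.004 over all tested genes. Without WT1, edgeR called 2 of the 8, Il5 and Osm, both higher in KO, against 1.82% of all tested genes (1.17% higher). Then 5 of the 8 had an unadjusted p under 0.05 (13.7% of all), 3 lay wholly above (15.8%) and 1 wholly below (14.3%), and the median log2 fold change was 0.18 beside 0.0005 over all genes.

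**Figure D2:**
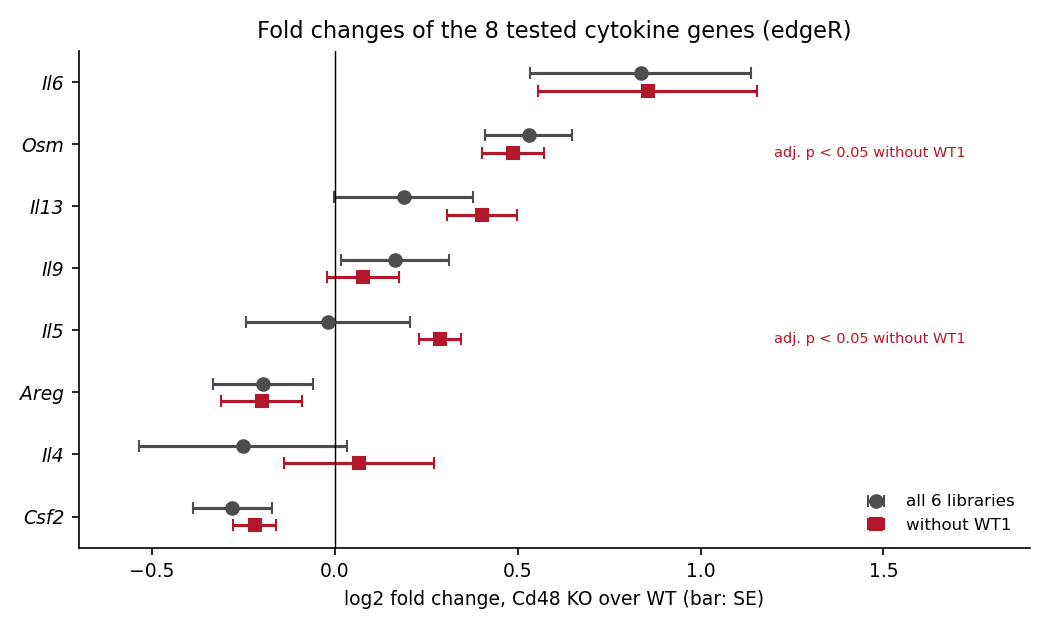
Log2 fold change of KO over WT for the 8 tested cytokine genes (edgeR, bars of SE), with all 6 libraries (grey circles) and without WT1 (red squares). Osm and Csf2 keep nearly the same values in both fits, whereas Il5 moves from -0.02 to 0.29.

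Osm was the member with the lowest p in both fits. It lies on chromosome 11 (4236420 to 4241026, plus strand), far from the Il5 cluster, and its product acts on stromal and epithelial cells through a receptor containing gp130. Its level was 84.9, 99.3 and 89.1 CPM in WT and 125, 142 and 128 CPM in KO. All 3 KO libraries were above all 3 WT libraries, with means of 131.6 ± 9.31 and 91.1 ± 7.42 CPM (SD, n = 3). The log2 fold change was 0.53 (SE 0.12) with all 6 libraries, an adjusted p of 0.623 in edgeR (BH), 0.0108 in DESeq2 and 0.0428 in limma-voom with sample quality weights. The last of these fits gave WT1 little weight. Without WT1, Osm rose by 0.49 on the log2 scale (SE 0.09, 1.40-fold), with an adjusted p of 0.0117 in edgeR (BH). That call ended when WT3, KO2 or KO3 was also left out (adjusted p of 0.101, 0.0728 and 0.0667, edgeR BH), with log2 fold changes of 0.40 to 0.56 over the 5 fits that left out a further library. Macrophages also make oncostatin M, and their markers besides Ccr2 summed to 5.81 to 16.2 CPM in KO and 10.8 to 33.3 CPM in WT; their part in the Osm values was not tested.

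Csf2 showed the opposite order. It encodes GM-CSF, lies on chromosome 11 (54247271 to 54249667, minus strand), and was the second most abundant member per kilobase. Its level was 658, 615 and 557 CPM in WT and 512, 517 and 478 CPM in KO. Every KO library was below every WT library, with means of 502 ± 21.4 and 609.9 ± 50.9 CPM (SD, n = 3). The log2 fold change was -0.28 (SE 0.11, adjusted p 0.690, edgeR BH), and -0.22 without WT1 (SE 0.06, adjusted p 0.0948). Csf2 passed no test at the threshold in any of the fits run, and its log2 fold change was negative in all of them. The libraries of the genotypes were thus ordered without overlap while the difference missed the adjusted threshold. An antisense gene overlapping Csf2, Gm12223, was at 0.339 CPM or less.

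Il5 and Il13, the signature cytokines of the lineage, depended on WT1. Il5 (53720794 to 53725106, plus strand) was at 10007, 6179 and 5597 CPM in WT and at 6841, 7642 and 7027 CPM in KO. WT1 was above all KO libraries, and WT2 and WT3 were below all of them. With all 6 libraries the log2 fold change was -0.02 (SE 0.22, adjusted p 0.977, edgeR BH). Without WT1, Il5 rose in KO by 0.29 on the log2 scale (SE 0.06, 1.22-fold), the means being 5888 ± 412 CPM in WT2 and WT3 and 7170 ± 419 CPM in KO (SD over 2 and 3 libraries), with an adjusted p of 0.0332 (edgeR, BH). The call ended when WT3, KO2 or KO3 was also left out (adjusted p of 0.195, 0.128 and 0.129, edgeR BH), and the log2 fold change stayed between 0.21 and 0.35. The antisense gene Gm12214, which overlaps Il5, was at 2.86 CPM in WT1 and 9.68 to 12.5 CPM in the other libraries; without a stated strand setting, reads of an overlapping pair cannot be told apart.

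Il13 (53631324 to 53634702, minus strand) had the same layout at a lower level. It was at 357 (WT1), 261 (WT2) and 225 CPM (WT3), and at 293, 357 and 310.0 CPM in KO. WT1 matched the highest KO library, while WT2 and WT3 were below every KO library. The log2 fold change was 0.19 (SE 0.19, adjusted p 0.729, edgeR BH) with all libraries and 0.40 (SE 0.10, adjusted p 0.0845) without WT1. Without WT1 it passed in DESeq2 (adjusted p 0.00796; 2.94% of all genes called), in limma-voom with quality weights (0.0493; 1.6%) and, in edgeR, after a transcript-length trend was taken out of each library (0.0272; 1.69%). It did not pass without WT1 and with no filter (0.0752), nor when WT2, WT3, KO2 or KO3 was also left out (0.0772, 0.297, 0.164 and 0.210; edgeR BH), and passed when KO1 was (0.0222). With WT1 kept and WT3 left out, the log2 fold change was 0.052. Il4 is the third gene of the cluster and encodes the cytokine of B cell class switching and Th2 priming. It was at 15.6, 9.01 and 8.97 CPM in WT and at 8.06, 11.5 and 8.64 CPM in KO, so the groups overlapped. Its log2 fold change was -0.25 (SE 0.29, adjusted p 0.746, edgeR BH), and 0.07 (SE 0.20, adjusted p 0.933) without WT1. Il4 was not tested against Il5 or Il13 in these fits.

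The 3 genes of the cluster shared a high level in WT1. Relative to the mean of WT2 and WT3, the WT1 level was higher by 0.77 for Il5, 0.56 for Il13 and 0.80 for Il4 on the log2 scale, but by 0.17 for Csf2. Il5 and Il13 have longest transcripts of 1537 and 1205 bases, and genes of 1000 to 2000 bases with at least 10 CPM had a median of 0.36 (1373 genes), of which 16.0% exceeded Il5. Il4 and Csf2 are shorter, at 605 and 800 bases, a class with a median of 0.47. Il5, Il13 and Il4 were above and Csf2 below the median of its length class. The part of length in the result was not tested beyond the fit with a length trend. In that fit, with all 6 libraries, Il5 had a log2 fold change of 0.12 (SE 0.16, adjusted p 0.800) and Il13 of 0.33 (SE 0.13, adjusted p 0.608, edgeR BH). Csf2 moved in that fit from -0.28 to -0.13 (SE 0.11, adjusted p 0.712).

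**Figure D3:**
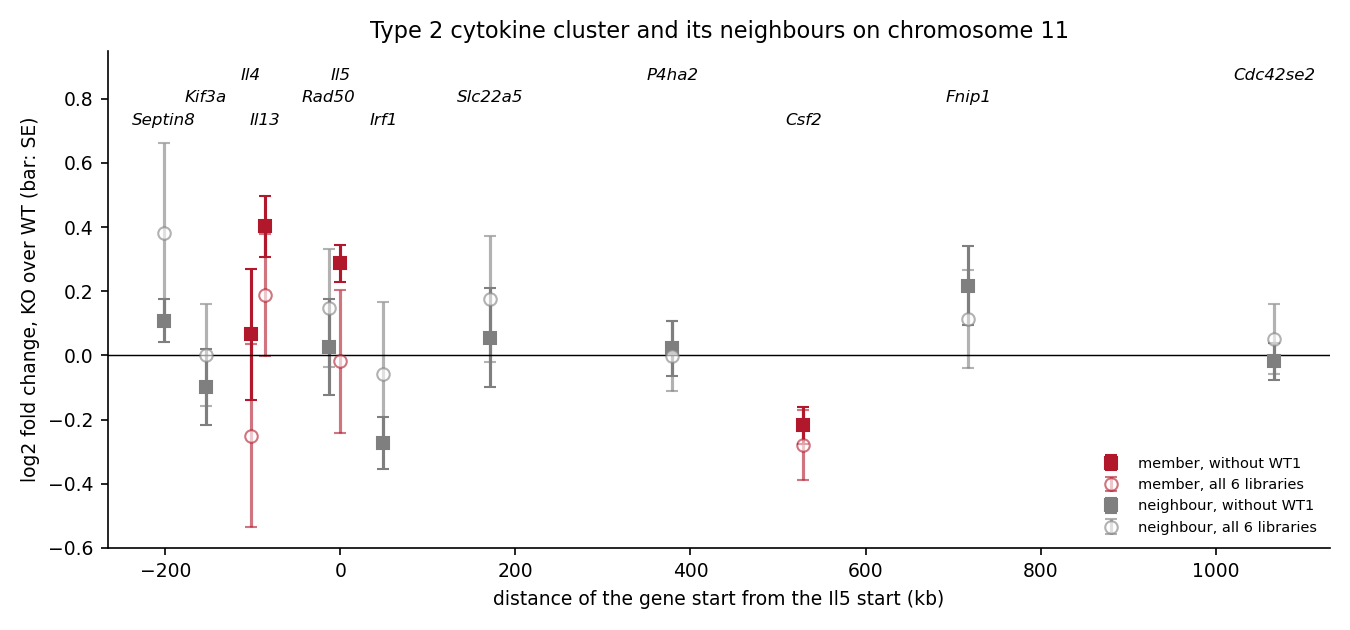
Log2 fold change of KO over WT (bars of SE) against the distance of each gene's start from the Il5 start, for the tested members (red) and their listed neighbours (grey), with all 6 libraries (open circles) and without WT1 (filled squares). Without WT1, Il5 and Il13 lie at 0.29 and 0.40, Rad50 between them at 0.03 and Csf2 at -0.22.

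The genes between and around the cytokines had values of both signs, and no difference between them and the cytokines was tested. Rad50, a DNA repair gene whose introns hold the locus control region of the cluster, lies between Il13 and Il5 and had a log2 fold change of 0.15 (SE 0.18) with all libraries and 0.03 (SE 0.15) without WT1. Irf1, the interferon regulatory factor gene 49.2 kb beyond the Il5 start, was at -0.06 (SE 0.22) and -0.27 (SE 0.08, adjusted p 0.129, edgeR BH). Of 12 listed neighbours 11 were in the table and 8 were tested, and 0 passed with all libraries or without WT1. At an unadjusted p under 0.05 there were 0 and 1 of the 8, against 6.89% and 13.7% of all tested genes. The neighbours had median log2 fold changes of 0.08 and 0.02. The most abundant, Cdc42se2, Septin8 and Rad50, stood at 0.05, 0.38 and 0.15 on the log2 scale over the 6 libraries and at -0.019, 0.11 and 0.026 without WT1, none past the test. Il3, which lies beside Csf2, was the listed neighbour not found by name in the gene count table, so it has no value here.

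Ratios of 2 genes' counts within a library do not depend on how libraries are scaled. A shift that differs between the 2 genes, such as that with transcript length in WT1, does not cancel in them. The ratio of Osm to Csf2 was 0.129, 0.161 and 0.160 in WT and 0.243, 0.275 and 0.268 in KO. The mean was 1.75-fold higher in KO (log2 difference 0.81, and 0.70 without WT1). This restates the opposite orders of Osm and Csf2 given above, so that the lack of overlap follows from them and adds no evidence. The exact two-sided permutation test gave p = 0.1, the smallest that 3 against 3 libraries allow (BH-adjusted over the 8 ratios computed, 0.16). The ratio of Il13 to Csf2 was 0.543, 0.425 and 0.404 in WT and 0.573, 0.691 and 0.649 in KO, again without overlap (exact permutation p = 0.1, adjusted 0.16). The ratio of Il13 to Il5 was 0.0357, 0.0423 and 0.0402 in WT and 0.0429, 0.0468 and 0.0441 in KO, also without overlap but by 1.13-fold. Il5 to Csf2 overlapped (15.2, 10.05 and 10.05 in WT, 13.4, 14.8 and 14.7 in KO; exact permutation p = 0.4), since WT1 had the highest ratio. Relative to Il13, Il4 was lower in KO (0.0438, 0.0345 and 0.0399 in WT, 0.0275, 0.0322 and 0.0279 in KO; exact permutation p = 0.1, adjusted 0.16). Of the other 3 ratios, all to Il5, that of Osm did not overlap (exact permutation p = 0.1) and those of Il9 and Areg did (p = 1.0 and 0.4). Osm to Il5 was 0.00849, 0.0161 and 0.0159 in WT and 0.0182, 0.0186 and 0.0182 in KO. Its log2 difference was 0.50, and 0.20 without WT1. No ratio passed, since 3 against 3 libraries cannot go below 0.1, and a ratio does not tell which of a pair differs. The 8 ratios share genes, so those without overlap are not separate results. How often ratios of other gene pairs do not overlap was not computed. For single genes, every KO library lay above every WT library in 10.2% of all tested genes, and below in 9.11%.

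**Figure D4:**
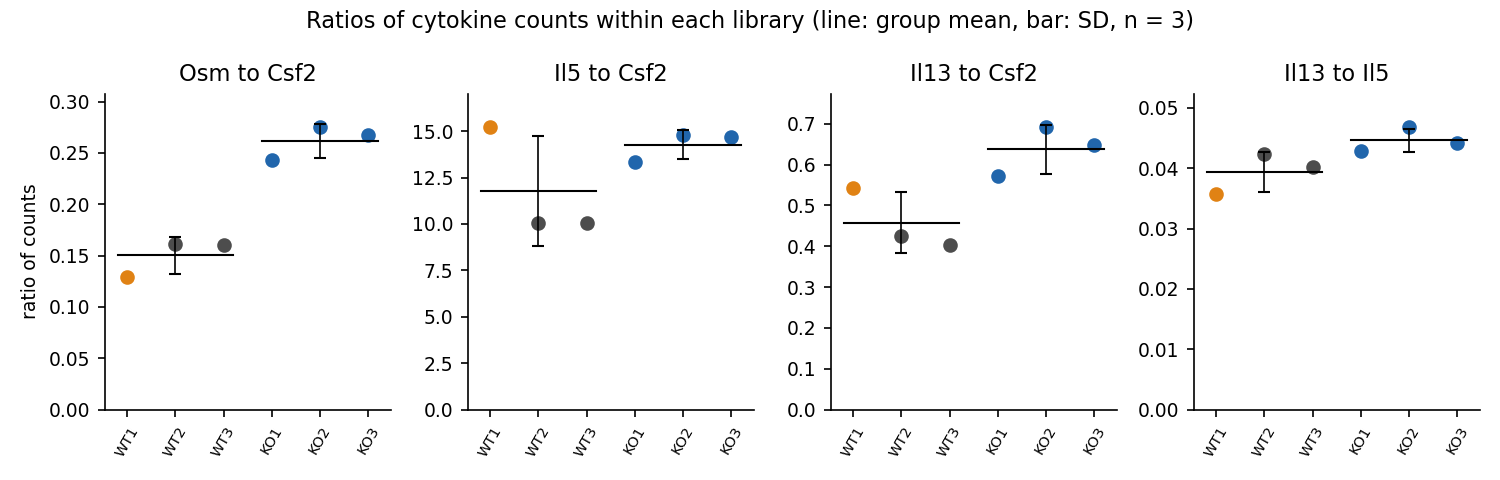
Ratios of deposited counts of 2 cytokine genes within each library (linear axes from 0), with WT1 in orange, lines at group means and bars of SD (n = 3). The 3 KO libraries lie above all WT libraries for Osm to Csf2, Il13 to Csf2 and Il13 to Il5, while WT1 (15.2) is the highest for Il5 to Csf2.

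The order of Areg and Osm in levels per kilobase was not the same in the genotypes. In WT Areg was at 53.2, 61.3 and 47.6 CPM per kilobase and Osm at 37.4, 43.7 and 39.2. In KO Areg was at 44.5, 50.05 and 46.8 and Osm at 54.9, 62.6 and 56.3. Areg thus exceeded Osm in 3 of 3 WT libraries and Osm exceeded Areg in 3 of 3 KO libraries. This order rests on dividing by the longest annotated transcripts (1215 bases for Areg, 2272 for Osm): in CPM, Osm was above Areg in all 6 libraries. Areg itself (chromosome 5, 91139599 to 91148432, plus strand) was at 64.7, 74.5 and 57.9 CPM in WT and 54.1, 60.8 and 56.8 CPM in KO, which overlap. Its log2 fold change was -0.20 (SE 0.14, adjusted p 0.693, edgeR BH), and -0.20 (SE 0.11, adjusted p 0.477) without WT1. Lung epithelium also makes amphiregulin, and the epithelial markers had a lower sum in KO (11.2 to 25.1 CPM, against 32.1 to 84.7 CPM in WT). Different genes led these sums, such as Sftpc in WT2 (23.3 CPM) and Scgb1a1 in WT3 (47.2 CPM). With all libraries 0 of 5 tested markers were called, and without WT1 1 of 7, Epcam (0.03% and 1.82% of all tested genes). The part of these markers in the Areg values was not tested.

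Il6, a broadly acting inflammatory cytokine, had the largest positive log2 fold change of the tested members at a low level. It was at 6.91, 9.21 and 4.88 CPM in WT and at 13.3, 14.9 and 9.14 CPM in KO. The groups overlapped by 1 pair, since KO3 was just under WT2. The log2 fold change was 0.84 (SE 0.30, adjusted p 0.690, edgeR BH) and 0.86 (SE 0.30, adjusted p 0.241) without WT1, and positive in all fits run. Il9 (chromosome 13, 56479277 to 56482246, minus strand) was the steadiest member in KO, at 88.5, 86.2 and 90.5 CPM, a coefficient of variation of 2.43%. In WT it was at 68.2, 94.3 and 74.2 CPM, so the groups overlapped, and its log2 fold change was 0.16 (SE 0.15, adjusted p 0.715) with and 0.08 (SE 0.10, adjusted p 0.805) without WT1 (edgeR, BH).

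Il10 and Il2 were near the limit of detection. Il10, an anti-inflammatory cytokine encoded on chromosome 1 (131019845 to 131024974, plus strand), had 0, 1 and 1 reads in WT and 14, 4 and 4 in KO. Every KO library had more reads than any WT library. All KO libraries lay above all WT libraries for 10.2% of tested genes, and this share was not computed among genes below the filter. The summed 22 KO and 2 WT reads gave a ratio of 12.5 after scaling, with a 95% exact interval from 3.07 to 109.5. That interval covers counting error only, with each read taken as a separate molecule, and not the spread between libraries. With no filter on low counts edgeR gave Il10 an adjusted p of 0.753 (BH), and 0.325 without WT1, and KO1 alone held 14 of the 22 reads. Il2, a T cell growth factor that ILC2s respond to, summed to 24 reads in WT and 20 in KO, a ratio of 0.946 (95% exact interval 0.496 to 1.79). Its deposited values were fractional, such as 5.02 in WT1. The limit that 3 counts set was 0.108 to 0.209 CPM per library.

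One feature that the choice by name did not use was shared by all members. AU-rich pentamers (ATTTA in DNA letters, overlapping matches counted, transcript strand only) in the untranslated region after the stop codon are sites at which decay factors of the ZFP36 family can act on cytokine transcripts. All 10 members held at least 1, as did 70.5% of 11082 tested protein-coding genes. The number ran from 2 in Il4 to 10 in Il6 with a median of 6.0, beside a median of 2.0 over the tested genes. The density was 34.9 per kilobase in Il9, 28.4 in Csf2, 19.2 in Il4, 15.8 in Areg and 12.0 in Il2, and lowest in Il13 at 4.05. The median over tested protein-coding genes was 1.33 and the 90th percentile 4.09, which 9 of the 10 members exceeded. Il9 and Il4 have short regions of 86 and 104 bases, so that few matches (3 and 2) give a high density. Csf2 held 9 matches in 317 bases. The remaining densities were 5.90 in Osm, 6.00 in Il6, 6.41 in Il5 and 8.50 in Il10.

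**Figure D5:**
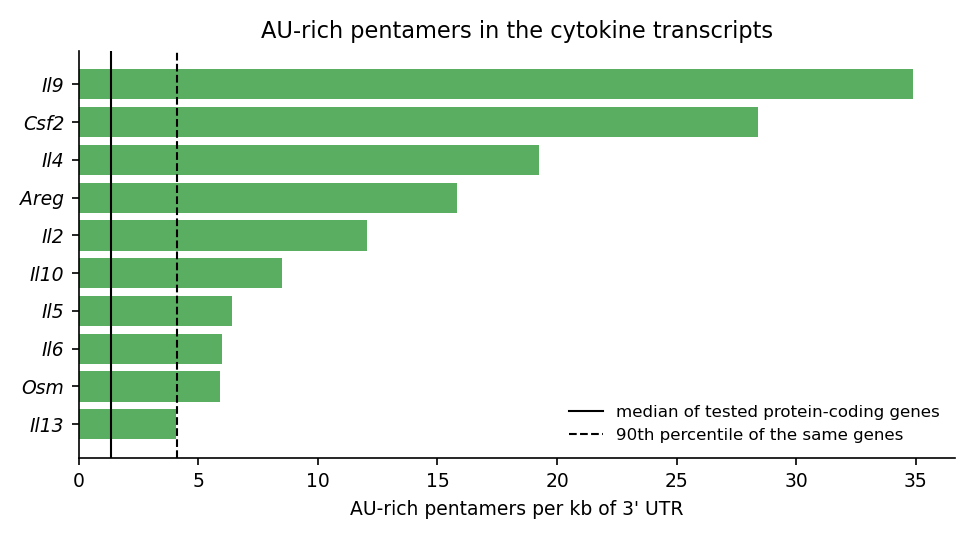
Density of the AU-rich pentamer in the longest annotated region after the stop codon of each cytokine transcript (bars), with the median (1.33, solid line) and the 90th percentile (4.09, dashed line) of tested protein-coding genes. All members but Il13 (4.05) lie beyond the dashed line.

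Of the genes that act on these loci and transcripts, none was called with all 6 libraries. Over all tested genes, 6.89% had an unadjusted p under 0.05 with all libraries and 13.7% without WT1. Of 39 tested transcription factors of type 2 cytokine loci, 0 passed in either fit (6 at an unadjusted p under 0.05 with all libraries and 11 without WT1), with median log2 fold changes of 0.07 and 0.03. Gata3, the factor that binds the Il5 and Il13 promoters, was at 1417, 1072 and 1125 CPM in WT and 1088, 934.4 and 780.3 CPM in KO, an overlap by 1 library, with a log2 fold change of -0.37 (SE 0.17, adjusted p 0.690, edgeR BH). Without WT1 its log2 fold change was -0.23 (SE 0.14). Id2, which represses E proteins, and Ets1 had values of 0.055 and -0.097, and of 0.16 and -0.12 without WT1. Of 20 genes of cytokine transcript decay and stability, 0 passed in either fit (5 and 2 at an unadjusted p under 0.05), with medians of -0.08 and 0.03. Its most abundant members were the deadenylase scaffold Cnot1, the stabilising factor Arid5a and the AU-rich element binder Elavl1, with log2 fold changes of 0.65, -0.08 and -0.65 (SE 0.48, 0.16 and 0.25), and of 0.24, 0.10 and -0.42 without WT1, in which Cnot1 was at 75.0 CPM beside 280.2 and 320.5 in WT2 and WT3. Of 18 genes of the IL-33 signalling chain, 0 passed in either fit (3 and 4 at an unadjusted p under 0.05). Il1rl1, the IL-33 receptor chain, was at 611, 1192 and 1276 CPM in WT and 1337, 1317 and 1347 CPM in KO, with a log2 fold change of 0.38 (SE 0.26), and 0.11 (SE 0.05) without WT1. Mapkapk2, a p38 target kinase, and the inhibitor Tollip were at -0.83 and 0.27, and at -0.65 and 0.13 without WT1.

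On the receiving side, 13 of 18 listed receptor chains for these cytokines were in the table and 12 were tested. With all libraries 0 passed and 1 had an unadjusted p under 0.05, against 0.03% and 6.89% of all tested genes. Without WT1, 5 had an unadjusted p under 0.05 (13.7% of all) and 1 passed (1.82% of all), higher in KO. That gene was Il2ra, the high-affinity IL-2 receptor chain, at 1625, 1564 and 1776 CPM in WT and 2025, 2066 and 2091 CPM in KO. It rose without WT1 by 0.31 on the log2 scale (SE 0.06, adjusted p 0.0200, edgeR BH). Il2rg, the common gamma chain, and Il4ra stood at -0.40 and 0.36 on the log2 scale over the 6 libraries, and at -0.06 and 0.13 without WT1, neither past the test. Il5ra, Il6ra, Osmr and Lifr were among the listed chains not found by name in the gene count table, so they have no values here. Of 5 genes of EGF-family ligand shedding, which frees amphiregulin from the cell surface, 0 passed in either fit (0 and 1 at an unadjusted p under 0.05), and Adam10, Adam17 and Frmd8 had log2 fold changes of 0.15, 0.20 and 0.003, and of 0.16, -0.076 and -0.054 without WT1, which turned the sign of Adam17 and Frmd8.

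Of 36 other cytokines and growth factors 24 were in the table and 16 were tested, with 0 called and a median of -0.01. Of the 16, 4 had an unadjusted p under 0.05, against 6.89% of all tested genes. Without WT1 1 of 19 was called (1.82% of all tested genes) and 6 had an unadjusted p under 0.05 (13.7%). The gene called was Il1rn, the IL-1 receptor antagonist, lower in KO, at 10.7 and 9.58 CPM in WT2 and WT3 and 3.97, 4.67 and 4.46 CPM in KO. It fell by 1.21 on the log2 scale (SE 0.21, adjusted p 0.0109, edgeR BH), and WT1 stood at 0.768 CPM. The most abundant of them, Tgfb1, Mif and Il16, had log2 fold changes of -0.06, 0.04 and -0.091, and of -0.023, 0.052 and -0.23 without WT1. Lif, the IL-6 family gene next to Osm, was named after its values were seen and was at 13.7, 19.3 and 14.97 CPM in WT and 24.7, 18.8 and 22.9 CPM in KO. The groups overlapped for Lif, and its log2 fold change was 0.47 (SE 0.19, adjusted p 0.690, edgeR BH). Without WT1 it was 0.38 (SE 0.16, adjusted p 0.312). Retnla, a secreted factor of type 2 responses also made by macrophages and epithelium, was likewise chosen after its values were seen. It stood at 0.768, 44.3 and 31.5 CPM in WT and 0.733, 0.492 and 2.88 CPM in KO, with WT1 among the KO values, and did not pass (adjusted p 0.690, and 0.0501 without WT1, edgeR BH). Csf1 and Penk also had an unadjusted p under 0.05 with all libraries and did not pass (edgeR). Their log2 fold changes were -0.74 (SE 0.28) and 1.15 (SE 0.41), and -0.50 and 0.93 without WT1.

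The genes whose levels followed Il5 and Il13 most closely differed with WT1. Over 6 libraries, the highest Pearson's r of log2 CPM with Il5 among 8675 other genes of at least 10 CPM was 0.996 for Cks1b, then 0.995 for Sptssa and 0.995 for Asf1b, and with Il13 it was 0.991 for Nudcd2 and Cenpa and 0.988 for Zfp446. Over the 5 libraries without WT1 they were Idi1, Slc19a2 and Tmem60 for Il5 (0.999, 0.999 and 0.998) and Tyms, Prpf39 and Calu for Il13 (0.999, 0.998 and 0.997). Not one gene was on both lists of a cytokine. With 5 or 6 points that share their library, and many genes searched, these values describe only the profiles.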

How the data were processed

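RNA of 6 samples (3 WT, 3 Cd48 KO, grouped by the sample titles) was measured. The table that the authors deposited holds estimated counts for each gene; the values (none below 0, unequal totals, 60.2% of non-zero values whole within 0.001) show no scaling. Listed without roles in the submitters' processing notes are the mm10 build, DESeq2, Partek 10.0 and STAR 2.7.8; for the gene counter, its annotation and its strand setting: not given in the sources used here. Per the labels' protocols, 10 pg of RNA per sample went into SMARTer cDNA.

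Counts were rounded and tested over the whole table in R 4.3.3 with edgeR 4.0.16 (TMM, filterByExpr with a minimum count of 10 and total of 15, robust quasi-likelihood fit, genotype as the only term, BH adjustment over all tested genes, threshold 0.05). Each SE was obtained by dividing the log2 fold change by the root of F. CPM uses TMM library sizes of all 6 libraries, also where WT1 is left out. Alternatives used DESeq2 1.42.0, limma 3.58.1, other size factors, no filter, a lowess trend on transcript length (span 0.3), the replicate number as a block, and each library left out; those that combine these with leaving out WT1 were chosen after seeing the data. A lone WT library was given the spread of the KO libraries. Depth (14928623 to 27450400 counts) limits precision at low counts. Intervals cover counting error only and take each read as a separate molecule. Amplified reads that carry no molecular identifier need not be separate molecules, so the intervals may be too narrow. Replicates differed beyond sampling noise (chi-square per gene of 5.52 to 149).

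Positions, transcript lengths and AU-rich pentamers are from GENCODE M21 (GRCm38), which held 17022 of the 17438 symbols (97.6%), and promoters from RefSeq. Same-numbered WT and KO samples did not deviate together (r of -0.046, -0.036 and -0.0091), so numbers were not taken as pairs. With few libraries per group and WT1 standing apart, these values cannot exclude a batch shared by number. The members, 7 gene lists and 11 marker lists were chosen with earlier results of these data known. Genes named are all members, of each list the 3 most abundant and those called with all libraries or without WT1, and the 3 closest profiles to Il5 and to Il13. Besides these, Cd48, Lif, Retnla, Csf1, Penk, Irf1 and genes in marker sums are named. The edgeR test was checked on simulated counts drawn with the spread of each fit. No simulated library was made to stand apart as WT1 did, and folds under 1.5 were not simulated. With all 6 libraries the test called 19% of 1.5-fold and 51% of 2-fold changes, with 2 false calls. Without WT1 it called 76% and 96%, with 12 false calls. A gene not called with all 6 libraries may thus still differ by such folds.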

Additional observations from a re-analysis of the deposited data

How the results depend on the processing

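Over all genes, 4 were called with all 6 libraries. The count was 108 with DESeq2, 95 with limma-voom with sample quality weights and 0 with the replicate block, and 0 to 248 when each library was left out (0 without KO1 or KO3, 248 without WT1). Without WT1 it was 401 with DESeq2, 231 with the transcript-length trend, 217 with no filter and 218 with quality weights, and 65 to 517 with a further library left out (89, 141, 517, 73 and 65 without WT2, WT3, KO1, KO2 and KO3). The count of cytokines called was 0 with all libraries, 1 with DESeq2, 1 with quality weights and 0 to 2 when each library was left out. Without WT1 it was 3 with DESeq2, 3 with the length trend, 2 with no filter, 3 with quality weights, and 0 to 3 with a further library left out (2 without WT2, 3 without KO1, 0 without WT3, KO2 or KO3). The cause of these shifts was not tested.

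The quality weights left WT1 little part in their fit with all libraries. Il5 reversed to positive log2 fold changes of 0.26 with quality weights, 0.12 with the length trend, 0.031 with the replicate block, 0.29 without WT1 and 0.016 without KO1 (-0.17 to 0.29 when each library was left out). Without WT1 it was 0.28 with DESeq2, 0.31 with the length trend, 0.29 with no filter and 0.31 with quality weights, and with a further library left out 0.35 (WT2), 0.21 (WT3), 0.33 (KO1), 0.24 (KO2) and 0.29 (KO3). Il4 reversed to 0.072 with quality weights and 0.066 without WT1 (-0.42 to 0.066 when each library was left out), and there to 0.063 with DESeq2, 0.13 with the length trend, 0.068 with no filter and 0.096 with quality weights, and with a further library left out to 0.063 (WT2), 0.057 (WT3), 0.17 (KO1) and 0.11 (KO3). Il9 reversed to -0.097 without WT1 and WT3. Osm, Il13, Il6, Csf2 and Areg kept their direction in all 21 alternatives. Whether the replicate numbers mark a shared batch is not known, so a call lost with the replicate block says nothing about the size of an effect. Depth limits Il10 and Il2, which were tested only where the filter let them through.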
